A study of Homo sapiens with 12 samples.

Results

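Genes of human chromosome 6 that were measurably transcribed in D283 cells, a cell line grown from a medulloblastoma, were followed from control cells to cells in which the kinase genes ABL1 and ABL2 had been inactivated. A member is a gene whose main entry lies on chromosome 6 and whose mean level was at least 5 CPM (counts scaled to the library total) in either group, apart from genes left out by symbol. The symbols left out are those of gene families such as histones, class I and II antigens, collagens and ribosomal proteins, and a set of further single genes that belong to none of these families. By this rule there were 406 members among the 459 genes of chromosome 6 at that level, and 53 were left out by symbol. Chromosome 6 has 2426 entries with counts, of 49651 in the whole table, and 9624 genes of the other chromosomes reached the same level. The members were chosen by the group mean levels of the comparison described here, and the chromosome was named with its shift already known, so their counts and medians are descriptions and not tests. In all, 373 members passed the minimum in both groups, 23 in the inactivated group alone and 10 in the control group alone.

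The control group received a scrambled construct, and the other group had genetic inactivation of ABL1 and ABL2. The sources used here do not give how the genes were inactivated or whether the cells are a clone or a pool. Each group has 3 libraries of enriched mRNA, each sequenced on 2 lanes as 50 bp paired-end reads, with 33505903 to 49034159 counts per library. Inactivated library 2 was the deepest.

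Chromosome 6 carries genes of unrelated functions. Its short arm holds the major histocompatibility complex, a dense cluster of immune genes, and a large cluster of histone genes, and its long arm holds many genes of neural development and cell adhesion. Loss of a copy of this chromosome is a known feature of medulloblastomas driven by WNT signalling. The files hold mRNA counts alone, and the number of copies of the chromosome in these cells was not analysed here.

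The sequences around the start sites of 6 members are shown because these genes moved farthest from the rest of the chromosome, in both directions, among those with a single listed start. ENPP1, MDGA1 and BACH2 fell the most, and FILIP1, TULP1 and KCNK5 rose the most. Each is 300 bases of the RefSeq sequence of GRCh38.p14, from 250 bases before to 50 after the start, written 5′ to 3′ on the gene's strand. They lie at chr6:131807770-131808069 (ENPP1, + strand), chr6:37697834-37698133 (MDGA1, − strand), chr6:90296794-90297093 (BACH2, − strand), chr6:75493751-75494050 (FILIP1, − strand), chr6:35512847-35513146 (TULP1, − strand) and chr6:39229426-39229725 (KCNK5, − strand). Capitals mark matches, on either strand, to the GC box (GGGCGG), the E-box (CACGTG), the CCAAT box (CCAAT), the cyclic AMP response element (TGACGTCA), an ETS motif (CCGGAAG) or the TATA box (TATAAA). Matches may overlap each other.
ENPP1: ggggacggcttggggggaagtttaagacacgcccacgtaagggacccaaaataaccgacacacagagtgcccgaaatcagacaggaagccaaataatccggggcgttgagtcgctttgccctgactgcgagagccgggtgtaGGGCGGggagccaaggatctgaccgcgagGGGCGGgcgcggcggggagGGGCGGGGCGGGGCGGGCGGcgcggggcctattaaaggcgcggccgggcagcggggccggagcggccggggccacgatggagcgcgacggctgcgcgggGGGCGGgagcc
MDGA1: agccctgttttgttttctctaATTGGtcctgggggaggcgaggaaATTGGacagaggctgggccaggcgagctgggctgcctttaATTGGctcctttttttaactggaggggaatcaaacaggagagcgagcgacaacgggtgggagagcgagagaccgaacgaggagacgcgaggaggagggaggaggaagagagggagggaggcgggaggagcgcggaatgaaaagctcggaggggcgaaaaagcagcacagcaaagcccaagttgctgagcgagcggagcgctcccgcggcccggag
BACH2: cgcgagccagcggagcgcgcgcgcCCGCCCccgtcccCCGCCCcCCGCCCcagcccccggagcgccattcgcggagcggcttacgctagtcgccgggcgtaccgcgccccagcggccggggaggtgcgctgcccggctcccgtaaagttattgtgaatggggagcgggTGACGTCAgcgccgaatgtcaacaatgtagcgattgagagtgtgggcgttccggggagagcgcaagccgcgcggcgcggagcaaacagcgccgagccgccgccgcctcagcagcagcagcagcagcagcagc
FILIP1: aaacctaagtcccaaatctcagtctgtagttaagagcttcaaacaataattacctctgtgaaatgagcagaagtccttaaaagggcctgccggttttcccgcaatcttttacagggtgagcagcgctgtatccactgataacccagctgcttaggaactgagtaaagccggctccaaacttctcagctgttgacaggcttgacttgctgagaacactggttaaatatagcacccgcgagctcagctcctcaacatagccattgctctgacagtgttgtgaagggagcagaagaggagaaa
TULP1: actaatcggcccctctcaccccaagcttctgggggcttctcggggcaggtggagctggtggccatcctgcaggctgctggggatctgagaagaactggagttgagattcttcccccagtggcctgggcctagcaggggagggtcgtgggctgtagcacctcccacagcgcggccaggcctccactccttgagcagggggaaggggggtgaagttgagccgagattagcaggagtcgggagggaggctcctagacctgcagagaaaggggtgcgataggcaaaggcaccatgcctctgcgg
KCNK5: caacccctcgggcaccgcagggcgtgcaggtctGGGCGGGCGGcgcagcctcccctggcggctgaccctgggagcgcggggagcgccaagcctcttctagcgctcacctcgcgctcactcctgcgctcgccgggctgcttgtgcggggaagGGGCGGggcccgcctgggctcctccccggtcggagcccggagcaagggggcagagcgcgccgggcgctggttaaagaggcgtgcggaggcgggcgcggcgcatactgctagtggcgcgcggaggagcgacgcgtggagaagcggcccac

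ENPP1 held 7 GC boxes, MDGA1 held 3 CCAAT boxes, all on the reverse strand, and BACH2 held 3 GC boxes and 1 cyclic AMP response element. KCNK5 held 3 GC boxes, and the windows of FILIP1 and TULP1 held none of the 6 motifs. FILIP1 and TULP1 also had the lowest ratio of observed to expected CpG of the 6, 0.362 and 0.305, against 0.883 to 1.12 for the other 4. A promoter sequence was matched for 356 of the 406 members. A GC box was present in 73.6% of these, in 72.0% of the promoters of genes of other chromosomes at the same level and in 44.6% of all promoters listed. The other shares, in the same order, were 32.0%, 38.2% and 35.7% for the CCAAT box, 2.53%, 3.5% and 1.98% for the cyclic AMP response element, and 16.0%, 21.7% and 10.7% for the ETS motif. The E-box was in 39 of 356 members, 829 of 7846 genes of other chromosomes and 2030 of all 27305 promoters, and the TATA box in 24, 372 and 3264. Median GC content was 65.5% in members and 66.0% in genes of other chromosomes at the same level. The differences between members and genes of other chromosomes in these shares were not tested. A match is a run of letters and not a binding site.

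As a check of the labels, ABL1 was at 157, 148 and 154 TMM-normalized CPM (scaled by trimmed mean of M values) in the controls and at 62.1, 62.3 and 61.1 in the inactivated libraries. ABL2 was at 144, 136 and 134 CPM against 97.5, 112 and 101 CPM. Both kinase genes, which lie on chromosomes 9 and 1, were lower in every inactivated library. Of 13 markers of medulloblastoma and neural cells, 11 were at 1 CPM or more in each group. The photoreceptor factor gene NRL had no count in any library. The summed level of these markers was 2894 to 2948 CPM in controls and 3765 to 3814 CPM in inactivated libraries. Of 5 immune markers none reached 1 CPM, and CD3E was at 0. AIF1 was also listed at 0, but it lies in the major histocompatibility complex, where the table's counts are not a measure of transcription. Of 7 fibroblast markers 3 reached 1 CPM in controls and 2 in inactivated libraries, with sums of 42.4 to 45.8 and 33.8 to 37.4 CPM and COL3A1 at 0. Of 3 endothelial markers 1 reached 1 CPM in each group, with sums of 1.85 to 2.40 and 1.87 to 1.94 CPM. The 5 epithelial markers summed to 17.5 to 19.6 CPM in controls and 238 to 278 CPM in inactivated libraries, almost all of it from KRT8, and EPCAM, CDH1 and KRT19 stayed under 1 CPM. The part of these differences in the results on chromosome 6 was not tested. In bulk libraries, a change in the number of cells of a kind and a change in RNA per cell cannot be told apart.

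Most members were more abundant in the inactivated cells. Chromosome 6 took 4.20%, 4.28% and 4.22% of all counts in the control libraries and 5.87%, 5.84% and 5.87% in the inactivated libraries. The members alone took 3.71%, 3.79% and 3.73% against 5.18%, 5.19% and 5.19%. The 3 inactivated libraries were all above the controls, and the libraries of a group lay close to each other. The median log2 ratio of the members to the control mean was −0.01, 0.01 and −0.01 in the control libraries and 0.49, 0.52 and 0.50 in the inactivated libraries. Over genes of the other chromosomes at the same level, the same median was −0.03, −0.04 and −0.02 in the inactivated libraries.

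By edgeR's quasi-likelihood test, with p values adjusted by Benjamini-Hochberg over all 14704 genes, 329 of the 406 members rose, 38 fell and 39 did not pass the threshold of 0.05. Among all genes tested 29.6% were higher and 29.7% lower, and among genes of the other chromosomes at the same level 28.9% were higher and 35.8% lower. The 3 inactivated libraries lay wholly above the 3 controls for 328 members and wholly below for 41, against 31.4% and 31.9% of all genes tested. All 406 members passed the filter on low counts. Since the rule used this contrast, nothing is read from these counts. Nothing in the labels says that replicate libraries were grown as separate cultures, so the p values reflect the spread between the libraries at hand, which may be technical.

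The median log2 fold change of the members (inactivated over control) was 0.50, or 1.42-fold, with quartiles of 0.24 and 0.70. The interquartile range, 0.46, was close to the 0.41 of genes of the other chromosomes, whose median was −0.03. Of the members 352, or 86.7%, had a log2 fold change above 0, against 45.4% on the other chromosomes. A log2 fold change between 0.25 and 0.75 was found for 214 members, 52.7%, and for 15.2% of genes elsewhere. Changes of at least 2-fold were fewer, with 35 members higher and 14 lower. The rule admits a gene that is high in either group alone, which favours such changes, so nothing is read from these counts. The same share on the other chromosomes is not given here. The plot of both distributions shows a displaced peak of much the same width.

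**Figure D1:**
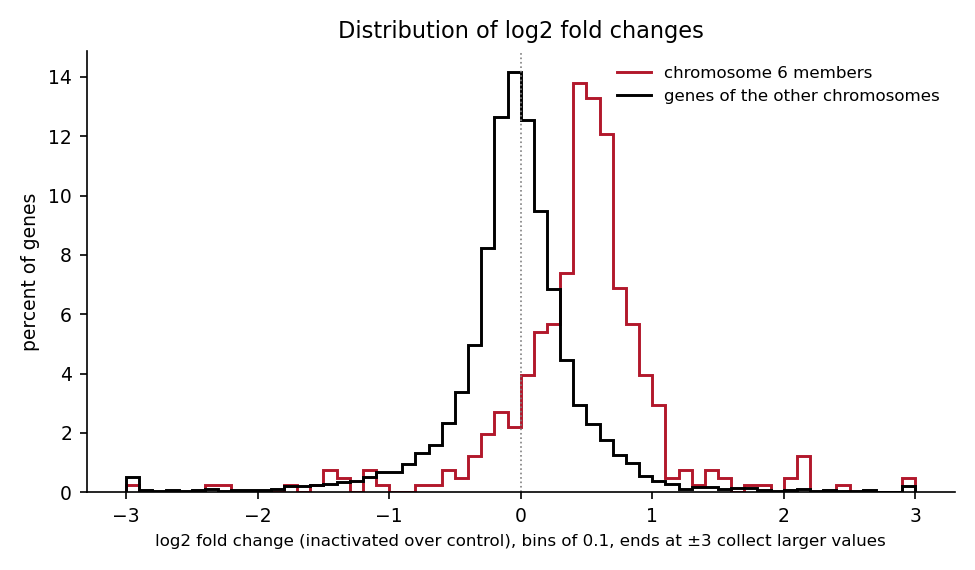
Percent of genes (vertical axis) by log2 fold change of inactivated over control cells (horizontal axis, bins of 0.1, with values beyond 3 in size collected in the end bins), for the 406 members in red and 9624 genes of the other chromosomes in black. The peak of the members lies near their median of 0.50 and that of the other genes near −0.03.

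Counted by whole chromosomes with no symbols left out, the median log2 fold change of chromosome 6 was 0.50 over 459 genes. The medians of the other 22 chromosomes ran from −0.10 to 0.37. Chromosome 17 had the highest of these, and without it the range was −0.10 to 0.02. The 53 genes left out by symbol had a median of 0.51, with 43 higher and 6 lower, which is close to the members. A further 116 genes of chromosome 6 between 1 and 5 CPM had a median of 0.43, with 54 higher and 17 lower and a wider interquartile range of 0.97.

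**Figure D2:**
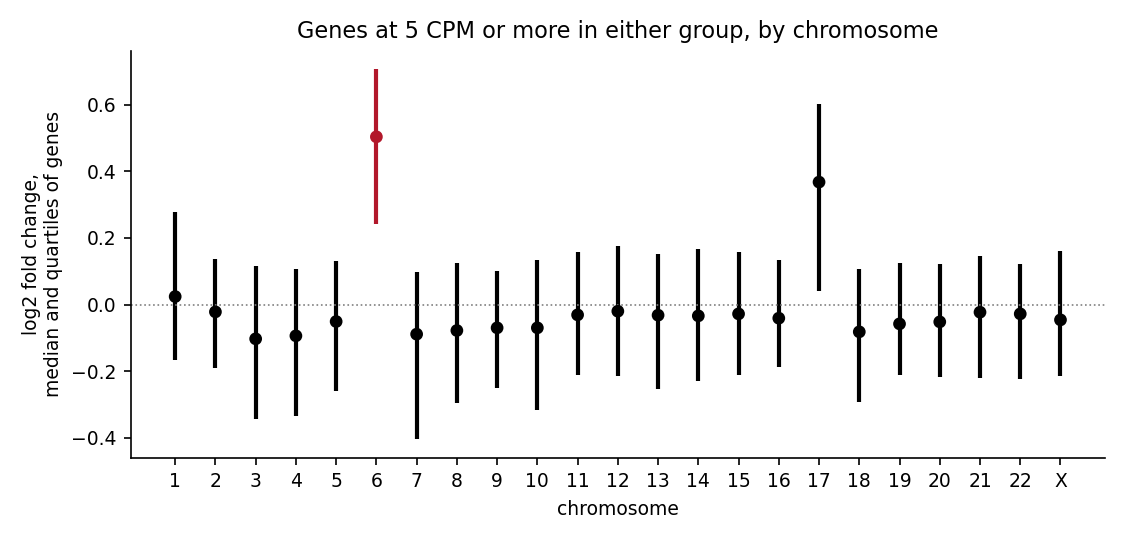
Median (point) and quartiles (bar) of the log2 fold change of inactivated over control cells, for genes at 5 CPM or more in either group on each chromosome. Chromosome 6, in red, is at 0.50 and chromosome 17 at 0.37, and the medians of the other 21 lie between −0.10 and 0.02.

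The shift ran along the whole chromosome. The 183 members of the short arm had a median log2 fold change of 0.52, with 150 higher and 11 lower, and the 223 members of the long arm had 0.48, with 179 higher and 27 lower. In windows of 10 Mb the median was above 0 in every one, from 0.37 between 60 and 70 Mb, where only 3 members lie, to 0.74 between 160 and 170 Mb. Between 40 and 50 Mb, the window with most members, 47 of 51 rose and 1 fell. Members that fell were most numerous between 130 and 150 Mb, with 6 of 25 in the window to 140 Mb and 6 of 26 in the next. Both shares were still under the 29.7% lower among all genes tested. They were also under the 35.8% lower among genes of the other chromosomes at the same level. Differences between windows were not tested. Neighbouring members resembled each other only weakly in log2 fold change, with Pearson's r = 0.146 and Spearman's rho = 0.15 over 405 neighbouring pairs, all from the same 6 libraries. This correlation is across genes, which are not independent replicates.

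**Figure D3:**
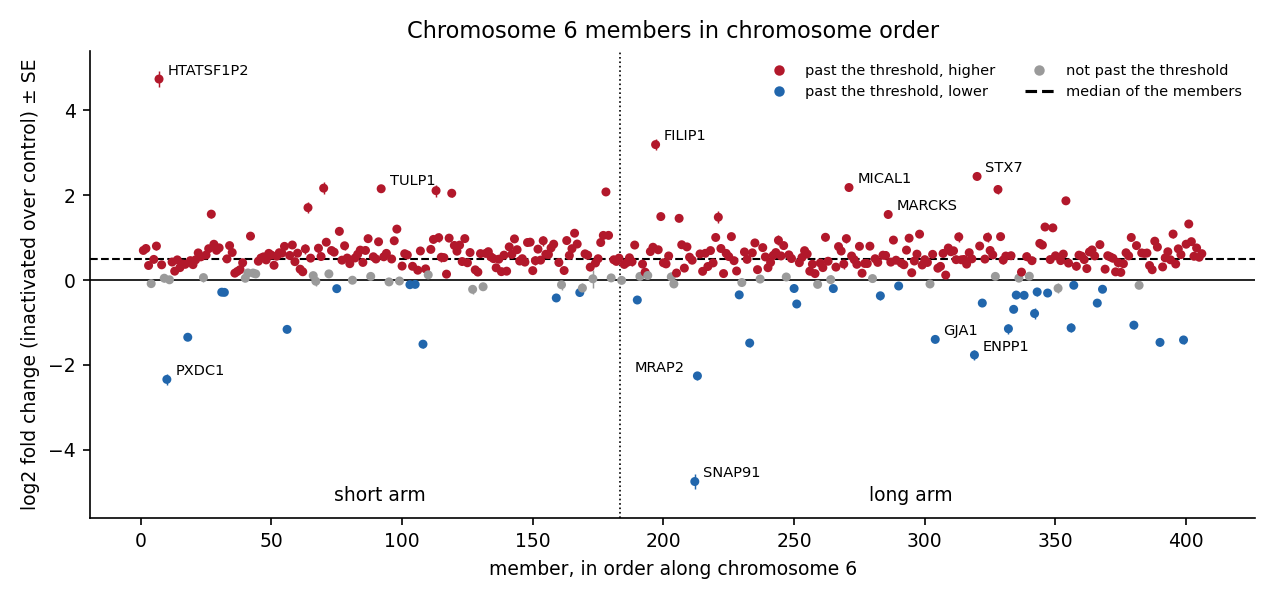
Log2 fold change ± SE of inactivated over control cells (vertical axis) for the 406 members in their order along the chromosome (horizontal axis), red where higher and blue where lower past the threshold of 0.05, grey otherwise. The dashed line is the median of the members, 0.50, and the dotted line separates the arms. Over both arms together 214 of the 406 points, or 52.7%, lie within 0.25 of the dashed line. The members that fell are scattered along the chromosome.

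Members with high counts lay closest to the common shift. With the members cut into 4 groups of about equal size by mean CPM, the median log2 fold change was 0.50, 0.41, 0.53 and 0.52 from the lowest to the highest group. The interquartile range narrowed from 0.88 in the lowest group to 0.50, 0.30 and 0.30. The lowest group, at 3.11 to 16.8 CPM, holds members such as FILIP1, STX7 and SNAP91 that passed the minimum through a single group. The rule favours large changes among such genes, so the width of the lowest group rests in part on the rule. Genes of other chromosomes in the same ranges of CPM had interquartile ranges of 0.62, 0.43, 0.34 and 0.31. The upper groups of members were therefore about as tight around 0.5 as genes elsewhere were around 0. By total exon length, the median was 0.49 in the shortest of 4 such groups and then 0.56, 0.46 and 0.50. The 12 members that do not code for protein had a median of 0.66, with 9 higher and none lower by edgeR's test. Among them the pseudogenes HTATSF1P2, TOB2P1 and ZNF204P passed the minimum through the inactivated group alone, so the rule itself required them to be high there. The median and the counts of these 12 therefore rest in part on the rule, and nothing is read from them.

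A test of each gene against its own chromosome shows which members left the common shift. In edgeR's quasi-likelihood test with the median of the gene's chromosome as an offset, 136 of the 406 members were above the chromosome 6 median and 138 were below it. Among all genes tested in this way 29.8% were above and 28.1% below the median of their own chromosome, and among genes of other chromosomes at the same level 31.7% were above and 31.7% below. The shares of members are near this background. All 136 members above the median had also risen against the controls, and so had 62 of the 138 below it. The 39 members whose level did not pass the first test included 38 that were below the chromosome's median. With a chromosome median of 0.50, a member above it is also above 0, and a member near 0 is below it. The counts of 136 and 38 therefore follow largely from the offset and are no separate result. The medians come from the same libraries as the tests.

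The members were also read by broad functional lists, drawn up by hand, some of whose genes fall outside the heading. Among all genes tested 29.6% were higher and 29.7% lower, and 29.8% were above and 28.1% below the median of their own chromosome. The counts by list are descriptions under the same rule, and none was tested against these shares. Of 28 members in translation and ribosome biogenesis, 27 rose and 1 fell, with a median log2 fold change of 0.50 and an interquartile range of 0.24, and 8 were above and 7 below the chromosome's median. EEF1A1, the elongation factor that brings aminoacyl-tRNA to the ribosome, was at 5491, 5661 and 5562 CPM in controls and 6524, 5964 and 6533 CPM in inactivated libraries. It rose by only 0.19 ± 0.05 (log2 fold change ± SE, adjusted p = 0.00297 in edgeR's test) and lay below the chromosome's median. HSP90AB1, a cytosolic chaperone, was at 4686, 4844 and 4727 CPM against 6548, 6444 and 6739 CPM, a log2 fold change of 0.47 ± 0.05 (edgeR, adjusted p = 4.13e-08). HSP90AB1 did not pass the test against the chromosome's median (−0.04, edgeR, adjusted p = 0.472), and the difference between these 2 genes was not tested. TCP1, a subunit of the chaperonin that folds actin and tubulin, rose from 578 ± 10.3 to 917 ± 20.1 CPM (mean ± SD, n = 3), and FKBP5, a co-chaperone of steroid receptors, from 332 ± 2.94 to 486 ± 17.8 CPM. The gene that fell was LTV1, a factor of small ribosomal subunit assembly, from 81.5 to 65.9 CPM, and it is named here after its value was seen.

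Of 28 members in RNA processing and splicing, 25 rose and none fell, with a median of 0.53. The 3 that did not pass edgeR's test were SRSF3, BCLAF1 and RBM24, the last named after its value was seen. SRSF3, a splicing factor of the SR family, was at 846, 881 and 889 CPM in controls and 876, 831 and 868 CPM in inactivated libraries. Its groups overlapped (log2 fold change −0.02 ± 0.04, edgeR, adjusted p = 0.679). It was below the chromosome's median by 0.53, which follows largely from the offset. BCLAF1, a nuclear protein of transcription and RNA processing, was at 405, 419 and 413 CPM against 418, 457 and 439 CPM, also with overlap (0.09 ± 0.04, edgeR, adjusted p = 0.0962). SYNCRIP, an RNA-binding protein of mRNA transport and translation, rose from 821 ± 11.9 to 1024 ± 26.8 CPM, and QKI, a regulator of splicing in glia, from 329 ± 7.83 to 427 ± 15.8 CPM. NUP43, a nuclear pore subunit, rose from 110 ± 1.58 to 181 ± 5.16 CPM.

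In the list of chromatin regulators 25 of 27 members rose and 2 fell, with a median of 0.50 and an interquartile range of 0.21. The list also holds REV3L, a DNA polymerase, SIRT5, a mitochondrial deacylase, MBOAT1, an acyltransferase, AHI1, a cilium protein, and UHRF1BP1, which are not known as chromatin proteins and all rose. DEK, a chromatin protein that binds bent DNA, was at 695, 721 and 709 CPM in controls and 878, 912 and 915 CPM in inactivated libraries, a log2 fold change of 0.35 ± 0.04. HDAC2, a histone deacetylase, was at 467, 476 and 466 CPM against 615, 621 and 652 CPM, a log2 fold change of 0.42 ± 0.04. In neither gene did the groups overlap. PHF3, which binds RNA polymerase II, rose from 185 ± 3.43 to 239 ± 14.4 CPM, and SENP6, a SUMO protease, from 171 ± 4.43 to 281 ± 10.1 CPM. The 2 that fell, TSPYL4 and the ubiquitin ligase gene RNF8, moved by −0.14 and −0.10 and are named after their values were seen.

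Among transcription factors the shares were near those of all members. Of 47 members 36 rose, 5 fell and 6 did not pass, with a median of 0.54 and an interquartile range of 0.57. CCNC, the cyclin of the Mediator kinase module, rose from 141 ± 4.32 to 247 ± 2.90 CPM, a log2 fold change of 0.81 ± 0.04. Part of its exons lies opposite TSTD3. GTF3C6, a subunit of an RNA polymerase III factor, rose from 137 ± 3.88 to 180 ± 9.58 CPM. NFYA, which binds the CCAAT box, rose from 115 ± 2.71 to 127 ± 2.68 CPM, a smaller change that lay below the chromosome's median by 0.37. The 5 that fell were BACH2, HIVEP2, HIVEP1, FOXO3 and ZSCAN31, the last 3 named after their values were seen. HIVEP2, a zinc finger protein that was just above the level minimum, was at 4.70, 5.18 and 5.66 CPM in controls and 2.95, 3.16 and 2.83 CPM in inactivated libraries.

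Of 30 members in cell cycle and chromosome segregation 27 rose, 2 fell and 1 did not pass, with a median of 0.59. SRPK1, a kinase of SR splicing factors, was at 295, 299 and 288 CPM in controls and 444, 459 and 460 CPM in inactivated libraries. Its log2 fold change was 0.63 ± 0.04. NEDD9, a scaffold protein of focal adhesions that is a known partner of ABL-family and SRC-family kinases, rose from 149 ± 4.20 to 252 ± 5.29 CPM. PTP4A1, a phosphatase linked to proliferation, was the member that did not pass, at 339, 354 and 343 CPM in controls and 332, 350 and 348 CPM in inactivated libraries. Its groups overlapped, and it was below the chromosome's median by 0.51. For a gene that hardly changed, this departure follows largely from the offset and is no separate result. The 2 that fell, PIM1 and RNF8, moved by −0.11 and −0.10 and are named after their values were seen.

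In the list of ubiquitin, SUMO and autophagy 23 of 27 members rose and 2 fell, RNF8 and BACH2, with a median of 0.48. BACH2, a transcriptional repressor, and the endosomal proteins STX7 and SNX3 stand in this list without being enzymes of these pathways. KCTD20, a regulator of AKT signalling, was at 301, 298 and 278 CPM in controls and 537, 560 and 567 CPM in inactivated libraries. Its log2 fold change of 0.93 ± 0.04 was 0.42 above the chromosome's median. SNX3, which sorts endosomal cargo, rose from 139 ± 3.55 to 190 ± 9.30 CPM and UBE2J1, a ubiquitin-conjugating enzyme of the endoplasmic reticulum, from 130 ± 2.24 to 150 ± 4.13 CPM. Among 34 kinases, phosphatases and signalling genes 25 rose, 6 fell and 3 did not pass, with a median of 0.46. CD164, a sialomucin of the cell surface, rose from 337 ± 6.43 to 542 ± 2.55 CPM.

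Of 53 members of mitochondria and metabolism 45 rose, 2 fell and 6 did not pass, with a median of 0.58. GLO1, which detoxifies methylglyoxal, was at 384, 415 and 392 CPM in controls and 665, 637 and 662 CPM in inactivated libraries. Its log2 fold change was 0.72 ± 0.04. MTHFD1L, an enzyme of mitochondrial folate metabolism, rose from 158 ± 4.73 to 282 ± 2.12 CPM, ELOVL5, which elongates polyunsaturated fatty acids, from 125 ± 2.83 to 230 ± 6.09 CPM, and MTCH1, a carrier-like protein of the outer mitochondrial membrane, from 138 ± 1.90 to 208 ± 11.7 CPM. ENPP1 and ALDH5A1 fell. In membrane traffic and organelles 30 of 36 members rose and 3 fell, SNAP91, RRAGD and TRAM2, of which the last 2 were named after their values were seen. The median was 0.46. SSR1 and SEC63, parts of the protein import machinery of the endoplasmic reticulum, rose from 298 ± 2.72 to 383 ± 9.32 CPM and from 190 ± 4.91 to 251 ± 3.95 CPM. TMEM30A, a subunit of phospholipid flippases, rose from 140 ± 2.31 to 239 ± 7.21 CPM.

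Cytoskeleton, adhesion and neural genes were the most dispersed list. Of 39 members 27 rose, 8 fell and 4 did not pass, with a median of 0.59 and an interquartile range of 0.96, and 18 were above and 14 below the chromosome's median. FILIP1, TULP1, MAP7 and KCNK5 of this list passed the minimum through the inactivated group alone. Its spread and the count above the median therefore rest in part on the rule. MARCKS, which binds actin and the plasma membrane and is a substrate of protein kinase C, was at 411, 428 and 442 CPM in controls and 1250.0, 1222 and 1261 CPM in inactivated libraries. Its log2 fold change was 1.54 ± 0.04 (edgeR, adjusted p = 9.53e-16), far beyond the common shift. DST, a large linker of actin, microtubules and intermediate filaments, was at 308, 290 and 292 CPM against 567, 699 and 579 CPM. The highest of these was inactivated library 2, the deepest, but all 3 were above the controls (1.05 ± 0.06). EZR, which links actin to the membrane, rose from 231 ± 2.86 to 435 ± 17.7 CPM and DSP, the main plaque protein of desmosomes, from 177 ± 4.21 to 276 ± 16.7 CPM. Both have exons opposite an antisense gene. The lists share members, with 61 of 406 in 2 or more, 285 in at least 1 and 121 in none. Those in no list had a median of 0.48, with 94 higher and 12 lower. The plot by list shows the narrow and the wide groups side by side.

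**Figure D4:**
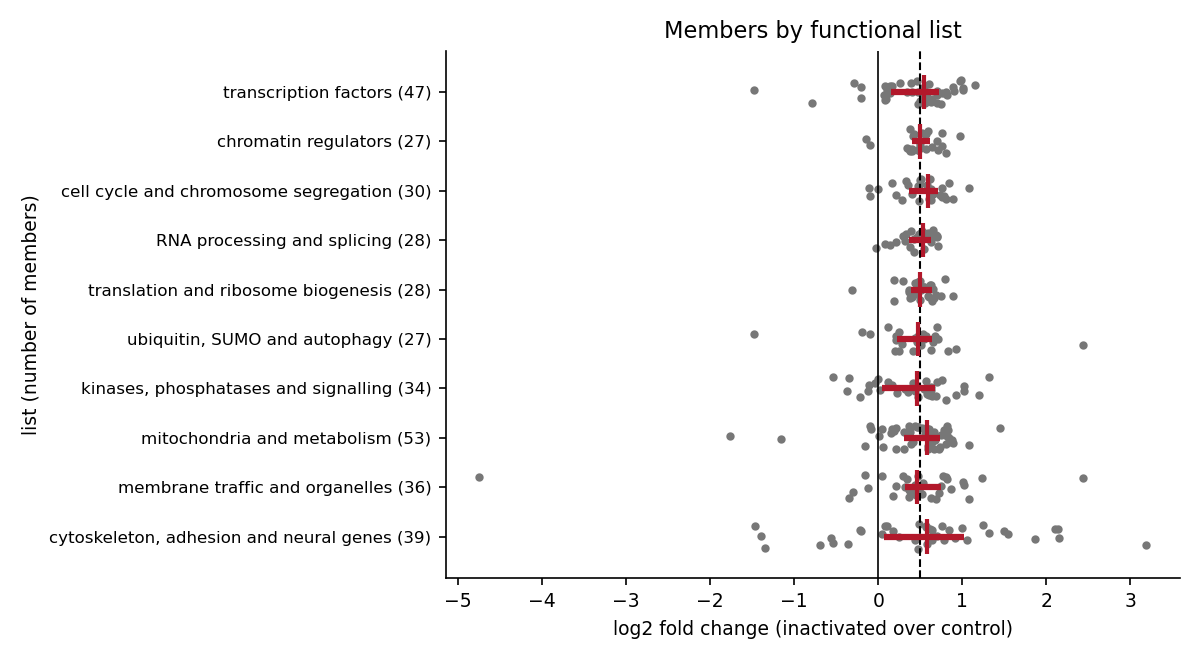
Log2 fold change of inactivated over control cells (horizontal axis) of the members of 10 functional lists (rows, with the number of members). Each grey point is a gene, spread vertically for legibility. The red bar spans the quartiles and the red tick is the median, and the dashed line is the median of all members, 0.50. Medians run from 0.46 to 0.59, and the list of cytoskeleton, adhesion and neural genes is the widest.

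The rule takes a gene that reaches the minimum in either group, so genes with low control levels could enter only if they were high in inactivated cells. FILIP1, STX7, MICAL1, TULP1, MAP7, KCNK5, HTATSF1P2, TOB2P1 and ZNF204P passed through the inactivated group alone, and their differences are described without p values. FILIP1 (chr6:75291859-75493800), a protein that binds filamin and affects the migration of cortical neurons, was at 1.10, 1.61 and 1.41 CPM in controls and 12.4, 13.6 and 11.5 CPM in inactivated libraries. Its log2 fold change was 3.19 ± 0.13, or 9.13-fold. Its neighbours TMEM30A and SENP6 were at 0.77 and 0.71, and MYO6, the member after SENP6, was at 1.495 and is named after its value was seen. FILIP1 was named for its large increase, so its distance from these genes is no result. Part of its exons lies opposite TMEM30A-DT.

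STX7 (chr6:132445867-132513472), a syntaxin of late endosomes, was at 4.08, 3.97 and 4.06 CPM in controls and 22.2, 21.6 and 21.9 CPM in inactivated libraries. The 3 libraries of each group were nearly equal, and the log2 fold change was 2.44 ± 0.08. MICAL1 (chr6:109444062-109465968), an enzyme that oxidizes and disassembles actin filaments, was at 4.56, 4.32 and 4.09 CPM against 21.5, 19.1 and 18.3 CPM (2.18 ± 0.09). It shares exons on the same strand with ZBTB24, which rose by 0.57, so reads of the shared part are uncertain. MAP7, which stabilizes microtubules, was at 2.76, 3.34 and 3.52 CPM against 13.4, 13.7 and 15.04 CPM (2.13 ± 0.10).

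TULP1 (chr6:35497874-35512896), a protein of photoreceptor cells, was at 4.33, 5.27 and 5.05 CPM in controls and 23.01, 20.89 and 21.18 CPM in inactivated libraries, a log2 fold change of 2.15 ± 0.08. KCNK5, a potassium channel of the background type, was at 1.24, 1.81 and 1.29 CPM against 6.42, 6.33 and 5.96 CPM (2.11 ± 0.14). A pair of further genes had similar changes, FAM83B, an effector of growth factor signalling, with 5.37, 5.53 and 4.81 CPM against 21.3, 23.3 and 21.6 CPM, and MDFI, an inhibitor of myogenic factors, with 4.64, 5.76 and 5.87 CPM against 25.4, 20.3 and 21.5 CPM. Groups that do not overlap were a condition for naming these genes, so their separation is no result.

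Transcribed pseudogenes were among the largest increases. HTATSF1P2 had 9, 6 and 8 counts in the control libraries and 226, 289 and 206 in the inactivated libraries, which is 0.222 ± 0.04 and 6.01 ± 0.18 CPM (log2 fold change 4.73 ± 0.19). In each control library it was within a few counts of the 3 counts that a level of 0 allows. Its exons overlap NQO2 on the opposite strand, a gene that rose by 0.80. TOB2P1 was at 1.18, 1.15 and 1.32 CPM against 5.47, 5.70 and 5.20 CPM, and ZNF204P at 1.74, 2.13 and 2.26 CPM against 7.02, 6.79 and 6.13 CPM. The parent genes HTATSF1 (log2 fold change −0.05, edgeR, adjusted p = 0.281) and TOB2 (−0.04, adjusted p = 0.408) did not pass the test. The sources used here do not say how reads that align to a pseudogene and its parent were treated, so these 3 values are uncertain.

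Among the largest decreases, SNAP91, MRAP2, PXDC1, ENPP1 and PERP passed the minimum through the control group alone, so they had to be high there, and their differences too are given without p values. SNAP91 (chr6:83552885-83709393), the clathrin assembly protein AP180 of synaptic vesicles, was at 7.68, 8.03 and 7.94 CPM in controls and 0.383, 0.262 and 0.234 CPM in inactivated libraries. This was the largest decrease, a log2 fold change of −4.75 ± 0.17, or 26.8-fold lower. MRAP2 (chr6:84033178-84146282), an accessory protein of melanocortin receptors and the next member along the chromosome, was at 11.5, 11.3 and 11.3 CPM against 2.60, 2.18 and 2.40 CPM (−2.26 ± 0.10). The members on either side rose, ME1 by 0.47 and CEP162 by 0.62. PXDC1, a gene of little known function, was at 6.86, 6.59 and 7.70 CPM against 1.202, 1.33 and 1.665 CPM (−2.34 ± 0.14).

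ENPP1 (chr6:131808020-131895155), an enzyme that makes pyrophosphate from extracellular ATP, was at 6.07, 6.79 and 6.65 CPM in controls and 2.05, 1.83 and 1.87 CPM in inactivated libraries (−1.76 ± 0.12). MDGA1 (chr6:37630679-37697883), which binds neuroligins at synapses, was at 15.6, 13.5 and 15.6 CPM against 5.60, 5.30 and 4.76 CPM (−1.51 ± 0.09). BACH2 (chr6:89926528-90296843), a transcriptional repressor best known from lymphocytes, was at 16.98, 15.95 and 14.05 CPM against 5.27, 5.92 and 5.55 CPM (−1.48 ± 0.09). These are the 3 genes that fell whose start regions are printed above. They too were named only if their groups did not overlap. FNDC1, a protein with fibronectin domains, was at 17.5, 16.8 and 15.5 CPM against 5.93, 5.82 and 6.28 CPM, and RNASET2, an acid ribonuclease, at 15.6, 13.9 and 14.4 CPM against 5.77, 4.88 and 5.99 CPM.

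GJA1 (chr6:121435646-121449727), the gap junction protein connexin 43, had the highest CPM among the 12 largest decreases. It was at 309, 312 and 313 CPM in controls and 118, 116 and 121 CPM in inactivated libraries, a log2 fold change of −1.40 ± 0.04, or 2.64-fold lower (edgeR, adjusted p = 1.01e-15). NRN1, a protein that promotes the growth of neurites, was at 30.1, 30.2 and 30.3 CPM against 12.5, 10.7 and 12.7 CPM. ALDH5A1, which breaks down the transmitter GABA, was at 26.4, 27.6 and 28.2 CPM against 11.5, 12.3 and 12.9 CPM, and PERP, a desmosomal target of p53, at 8.35, 8.75 and 7.43 CPM against 3.12, 3.77 and 4.21 CPM. NRN1 and ALDH5A1 have exons opposite other genes.

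**Figure D5:**
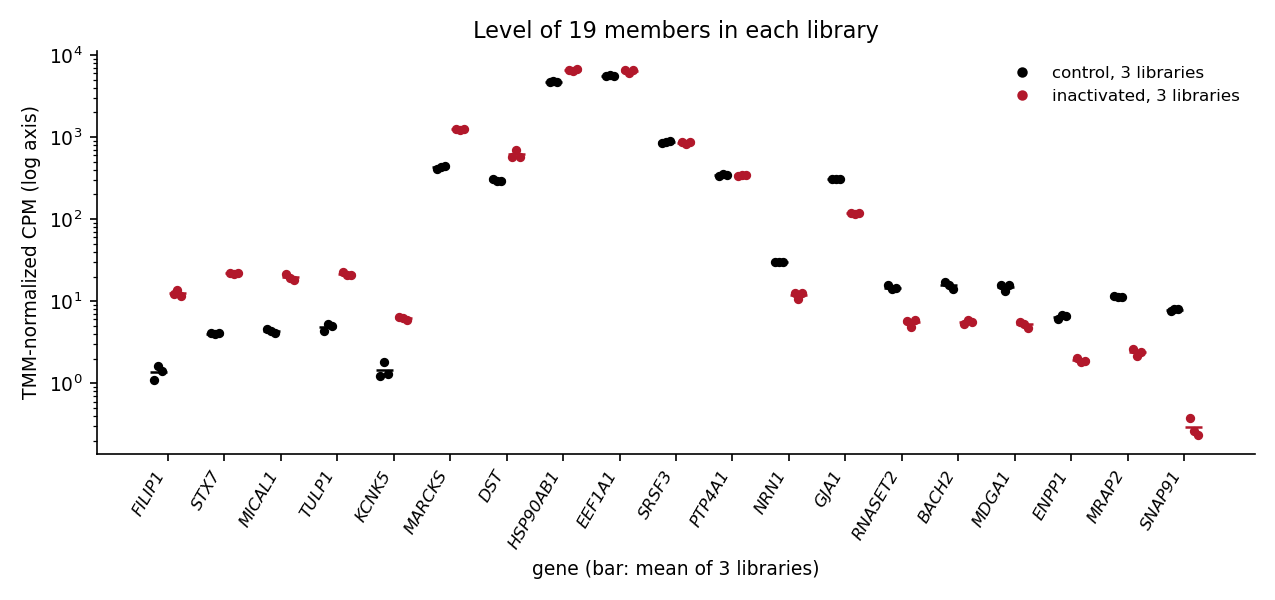
TMM-normalized CPM (vertical log axis) of 19 members in each library, with controls in black, inactivated libraries in red and a bar at each mean of 3. Genes that rose are on the left and genes that fell on the right. The points of SRSF3 and PTP4A1 overlap between the groups, and those of the other 17 genes do not.

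Other members were named as those with the highest CPM of their stretch of the chromosome. C6orf62 rose from 169 ± 6.24 to 228 ± 6.07 CPM and PDCD2, which assists the assembly of the small ribosomal subunit, from 89.4 ± 2.05 to 138 ± 2.55 CPM. At the edge of the rule, C6orf163 (4.84, 5.88 and 4.53 CPM in inactivated libraries, 1.94, 1.90 and 1.66 in controls) and HIVEP2 were just inside, the former through the inactivated and the latter through the control group alone. TENT5A, with 5.31, 5.01 and 4.42 CPM in controls and 4.32, 4.92 and 4.18 CPM in inactivated libraries, and BTN3A2, with 4.87, 3.89 and 4.78 against 3.01, 3.02 and 2.60 CPM, were just outside. The minimum is on CPM per library total, so TMM-normalized values differ slightly from it.

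The major histocompatibility complex is almost absent from the members. Between 29 and 33 Mb the table has 144 protein-coding entries, of which 143 have copies on alternate sequences of the same build. Only 1 of the 144, or 0.694%, reached 5 CPM, against 444 of 889, or 49.9%, on the rest of the chromosome, and 108 had no count in any library. Genes that every cell uses were among them, such as DDX39B, LSM2 and CSNK2B, which encode a splicing helicase, an RNA-binding Sm-like protein and a kinase subunit. Their main entries had 0 counts, and the copies of CSNK2B held 694. A count of 0 there is therefore not a measure of transcription, and this stretch was left undescribed apart from BRD2. BRD2, a bromodomain reader of acetylated histones and the only member there, was at 9.25, 8.58 and 8.75 CPM in controls and 13.53, 13.4 and 11.04 CPM in inactivated libraries (log2 fold change 0.52 ± 0.09), close to the common shift. Only 3 members have alternate copies, BRD2, MDN1 and BACH2.

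The sources used here do not say whether counting used the strand. Of the members 131 share exonic bases with an entry on the opposite strand and 17 with one on the same strand. The 131 had a median log2 fold change of 0.52, with 112 higher and 7 lower, and the 262 that share no bases had a median of 0.49, with 205 higher and 31 lower. The median was much the same in genes that share no bases with another entry.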

How the data were processed

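The deposited table holds unnormalized read counts of each gene for 12 samples, which are 6 libraries on 2 lanes each. The submitters' processing notes name the build GRCh38.p14, the aligner STAR 2.7.2b and the counter featureCounts 1.6.3, beside DESeq2 1.36.0, FastQC 0.11.9 and MultiQC 1.11. The exon length deposited beside each count, in bases, was used only to cut members into 4 groups by length. Lanes were summed per library. Of 49677 rows, 26 without counts were left out. Genes were filtered with filterByExpr in edgeR 4.0.16 (minimum count 10, minimum total 15), scaled by TMM and tested with the two-sided quasi-likelihood F test at a threshold of 0.05 after Benjamini-Hochberg adjustment over 14704 genes. The departure test adds the median of each gene's chromosome as an offset. The biological coefficient of variation was 0.0447. Tested on simulated data for this comparison over 14704 genes, the gene test recovered 69% of 1.5-fold and 87.5% of 2-fold changes, and 4.97% of its 161 calls were false. In the simulation only a small part of the genes changed, as many up as down. In the real libraries 29.6% of genes were called higher and 29.7% lower, so these rates may not hold for them. Depth gives a floor of 3 counts, 0.0612 to 0.0895 CPM, which covers counting error only.

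Named genes are the 12 largest increases and 12 largest decreases among members past the threshold whose groups do not overlap, up to 4 members with the highest mean CPM in each of 11 functional lists, the highest in each 10 Mb window, and the 2 genes on either side of the level minimum. A gene that this rule gave is not reported here. The members and lists were chosen with earlier results of these data known. All 406 members were matched to RefSeq. Other scalings, limma-voom 3.58.1, DESeq2 1.42.0, single lanes, other level minimums and leaving out each library were tried as alternatives.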

Additional observations from a re-analysis of the deposited data

How the results depend on the processing

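Of the 64 named genes, 61 kept their direction and their side of the threshold under all 14 alternatives to the scaling, test, filter, lanes and libraries. The others were near 0: PTP4A1 turned to 0.015 with library totals, 0.006 with TMM from genes outside the chromosome and 0.01 in lane 1, and ran from -0.019 to 0.017 as each library was left out, SRSF3 ran from -0.036 to 0.003, and BCLAF1 passed with library totals (adjusted p = 0.0347) and without inactivated library 1 (0.0334). The median log2 fold change of the members, 0.502, was 0.525 with library totals, 0.523 in lane 1 and, chosen after seeing the data, 0.486 with the minimum in controls alone. On the short arm it was 0.542, 0.547 and 0.503, with 0.539 in lane 2 and 0.546 at 20 CPM. On the long arm it was 0.505 with library totals, 0.5 in lane 1, 0.502 in lane 2 and 0.499 at 20 CPM. At 20 CPM 23 members of 310 fell, and without members that share exonic bases 205 of 262 rose. Leaving out each library gave medians of 0.491 to 0.515 (short arm 0.511 to 0.531, long arm 0.469 to 0.504), 320 to 330 higher, 32 to 37 lower, 115 to 131 above and 130 to 142 below the chromosome's median. The cause of these movements was not tested. Fewer genes were counted at 20 CPM and without overlaps. Library totals moved all genes by 0.0226. No paired analysis was possible because the labels give no replicate numbers shared between the groups.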
